A study of Mus musculus with 21 samples.

Results

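Of the 5135 regions of the mouse genome listed as hypermethylated in intestinal adenoma, 301 (5.86%) overlapped a CpG island called by strict criteria, and these 301 regions are described here. A strict island was built from every stretch of 500 bp with a GC content over 55% and a ratio of observed to expected CpG over 0.65, joining stretches that overlapped, and 1 shared base was enough for a region to be counted. The sequence rule used no methylation value, but each region had already been listed as a differentially methylated region (DMR) because its signal was higher in adenoma, so the higher adenoma signal is given as a description without a test. DNA methylation was measured by MeDIP-seq (sequencing of fragments pulled down with an antibody against 5-methylcytidine) in ileum of male C57BL/6J mice aged 15 to 19 weeks. The samples were normal intestine of 3 wild type mice (Apc-+/+, called B6 normal: B1, B2 and B3), normal intestine of 3 mice carrying the Min allele of the tumour suppressor Apc (Apc-Min/+, called APCMin normal: N4, N5 and N6), and 5 adenomas of Apc-Min/+ mice (Ad4, Ad4-1, Ad5, Ad6 and Ad7). Adenomas 4, 5 and 6 came from the same animals as the normal samples with these numbers, Ad4-1 was a further adenoma of animal 4, and Ad7 had no normal partner. All were pieces of whole tissue, so a gain of methylation in a share of the cells and a change in the mix of cells cannot be told apart in these values, and no gated or sorted cells were used here.

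CpG islands are stretches of the genome that have kept their CpG dinucleotides, and most of them lie at the start sites of housekeeping and developmental genes. In normal tissues island start sites are mostly free of methylation, while islands within gene bodies are more often methylated. Gain of methylation at islands, in particular at islands marked by Polycomb complexes in embryonic stem cells, is a known feature of intestinal tumours, and an antibody pull-down is most sensitive where many methylated CpG sites lie close together.

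Stretches of 300 bases from 7 of the regions are printed to show how CpG sites lie in them. They were taken as the stretch with the most CpG sites outside untranslated regions, from the mm9 genome (NCBIM37), and are given 5′ to 3′ on the strand of the gene in lower case, with each CpG in capitals. The regions were chosen as that with the largest gain (*Gata4*), a gain at the start site of a gene of absorptive cells (*Slc9a3*), the largest gain at a homeodomain gene (*Onecut3*), the largest gain in a first exon outside promoters (*Mn1*), the region with the most CpG sites (*Irx2*), an imprinted gene (*Plagl1*) and the region with the highest signal in normal intestine (*Pitx1*).
Gata4, chr14:63859519-63859818, minus strand, 33 CpG sites: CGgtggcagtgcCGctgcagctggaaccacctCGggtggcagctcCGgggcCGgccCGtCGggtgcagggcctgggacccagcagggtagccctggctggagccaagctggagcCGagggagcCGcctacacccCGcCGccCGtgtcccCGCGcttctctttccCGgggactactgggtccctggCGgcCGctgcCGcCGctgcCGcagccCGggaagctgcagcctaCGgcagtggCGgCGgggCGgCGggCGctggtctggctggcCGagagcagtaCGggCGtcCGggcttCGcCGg
Onecut3, chr10:79965611-79965910, plus strand, 19 CpG sites: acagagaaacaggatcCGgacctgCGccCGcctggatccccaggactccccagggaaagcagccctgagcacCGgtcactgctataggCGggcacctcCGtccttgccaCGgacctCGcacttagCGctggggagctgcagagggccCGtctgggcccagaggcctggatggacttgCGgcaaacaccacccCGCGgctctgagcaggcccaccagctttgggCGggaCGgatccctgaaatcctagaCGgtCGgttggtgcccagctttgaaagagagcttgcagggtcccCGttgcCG
Slc9a3, chr13:74258714-74259013, plus strand, 26 CpG sites: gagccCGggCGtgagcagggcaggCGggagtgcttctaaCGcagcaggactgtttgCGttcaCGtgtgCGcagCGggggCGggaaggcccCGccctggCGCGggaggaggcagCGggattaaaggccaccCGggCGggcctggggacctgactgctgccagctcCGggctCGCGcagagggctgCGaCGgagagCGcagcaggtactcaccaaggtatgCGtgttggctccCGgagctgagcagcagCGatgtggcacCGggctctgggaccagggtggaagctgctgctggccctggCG
Mn1, chr5:111847568-111847867, plus strand, 25 CpG sites: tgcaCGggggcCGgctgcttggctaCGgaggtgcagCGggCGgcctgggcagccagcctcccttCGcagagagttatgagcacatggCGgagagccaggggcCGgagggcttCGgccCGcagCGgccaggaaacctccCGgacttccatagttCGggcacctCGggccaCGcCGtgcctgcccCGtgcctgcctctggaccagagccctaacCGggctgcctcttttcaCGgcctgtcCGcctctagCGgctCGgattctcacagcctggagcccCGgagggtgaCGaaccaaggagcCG
Irx2, chr13:72768842-72769141, plus strand, 38 CpG sites: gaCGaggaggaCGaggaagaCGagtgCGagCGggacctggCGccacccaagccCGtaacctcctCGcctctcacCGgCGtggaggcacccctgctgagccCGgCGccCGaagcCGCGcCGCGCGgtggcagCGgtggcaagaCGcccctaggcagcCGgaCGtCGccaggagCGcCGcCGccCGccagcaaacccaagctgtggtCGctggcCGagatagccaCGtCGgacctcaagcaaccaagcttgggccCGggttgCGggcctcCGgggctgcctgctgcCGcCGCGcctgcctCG
Plagl1, chr10:12810251-12810550, plus strand, 21 CpG sites: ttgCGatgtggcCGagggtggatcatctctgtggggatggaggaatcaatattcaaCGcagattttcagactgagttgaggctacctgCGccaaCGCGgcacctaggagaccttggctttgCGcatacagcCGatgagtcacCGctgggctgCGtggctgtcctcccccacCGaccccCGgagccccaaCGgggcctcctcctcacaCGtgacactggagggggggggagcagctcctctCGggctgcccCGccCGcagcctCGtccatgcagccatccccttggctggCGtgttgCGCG
Pitx1, chr13:55927504-55927803, minus strand, 24 CpG sites: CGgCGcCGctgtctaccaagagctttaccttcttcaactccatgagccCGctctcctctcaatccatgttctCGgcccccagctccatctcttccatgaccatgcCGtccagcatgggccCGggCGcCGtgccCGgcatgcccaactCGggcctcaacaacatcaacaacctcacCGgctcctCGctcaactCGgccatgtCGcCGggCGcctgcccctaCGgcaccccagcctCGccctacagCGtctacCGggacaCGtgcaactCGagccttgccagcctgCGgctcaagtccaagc
The stretch of *Onecut3* lies outside the island, which this region overlaps by 66 bp at its edge, and the other 6 stretches lie in islands. The letters searched were CG, which read the same on both strands. The stretches held at least 19 CpG sites, a number reached by the best stretch of 300 bases in 188 of the 301 regions (62.5%) and in 39 of the other 4834 hypermethylated DMRs (0.807%). The 301 regions held a median of 31 CpG sites and had a median GC content of 59.0%, compared to 8 sites and 47.6% in the other hypermethylated DMRs. A single window of 500 bp made up 177 of them (58.8%), compared to 84.6% of the other hypermethylated DMRs, and 44 (14.6%) were 1000 bp or longer, compared to 1.10% of the other hypermethylated DMRs.

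Signals are given in rpm, the mean coverage of a region by extended reads, scaled to how many reads of that library aligned uniquely. The MeDIP libraries held 13878615 to 26297510 uniquely aligned reads. At 0.5 rpm, a window of 500 bp then rested on 11.6 to 21.9 fragments per sample, with a relative counting error (SD) of 21.4% to 29.4%, and at 1 rpm on 23.1 to 43.8 fragments, with an error of 15.1% to 20.8%. Single values of weak regions are therefore imprecise, with a counting error of 47.8% to 65.8% at 0.1 rpm. The library names in the sample titles carry 4 different leading numbers, called library series here, and what these numbers stand for was not given. Series 4 (B1, B2, N4, Ad4 and Ad4-1) held both tissues with more than 1 sample each.

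Averaged over the 301 regions, the signal was 0.922 rpm in Ad4, 0.905 in Ad4-1, 0.949 in Ad5, 0.856 in Ad6 and 0.913 in Ad7. In B6 normal intestine it was 0.512 rpm in B1, 0.663 in B2 and 0.563 in B3. In APCMin normal intestine it was 0.538 rpm in N4, 0.398 in N5 and 0.628 in N6. The 5 adenomas lay close together, with a mean of 0.909 ± 0.0342 rpm (SD, n = 5), whereas the 6 normal samples ranged over 1.67-fold, with a mean of 0.55 ± 0.0936 rpm (SD, n = 6). Over the other 4834 hypermethylated DMRs the normal samples lay between 0.282 and 0.306 rpm and the adenomas between 0.446 and 0.472 rpm. The wide spread of normal intestine, with N5 lowest and B2 highest, was thus seen in the island regions, and the range over the other hypermethylated DMRs was 1.08-fold. The same order, with a smaller range, was seen in 2 related groups. It was 1.25-fold in the 423 hypermethylated DMRs that overlapped only looser islands (300 bp, over 50% GC and a ratio over 0.6). In the 90 hypomethylated DMRs of strict islands it was 1.18-fold.

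**Figure D1:**
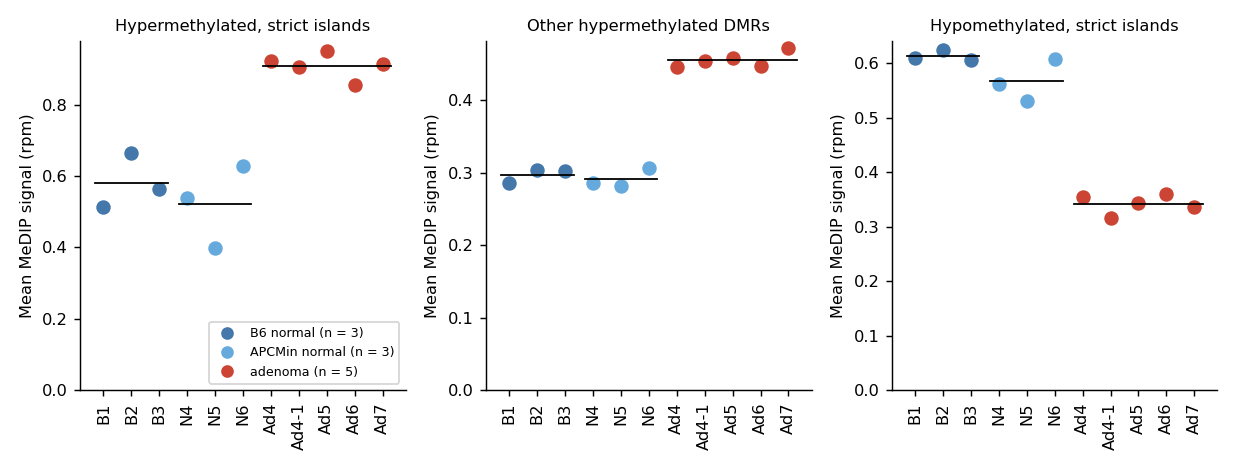
Mean MeDIP signal in rpm of each sample (1 point per sample, lines are group means) over the 301 hypermethylated DMRs in strict islands, the 4834 other hypermethylated DMRs and the 90 hypomethylated DMRs in strict islands, each on its own axis from 0. Adenomas lie between 0.856 and 0.949 rpm in the first panel, and the normal samples range from 0.398 rpm in N5 to 0.663 rpm in B2.

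The standing of the normal samples differed between classes of CpG content of the regions. Among all hypermethylated DMRs with fewer than 10 CpG sites (3330 regions), N5 had 98.8% of the mean of the 6 normal samples and B2 had 102%. In the 100 DMRs with 40 or more sites, N5 had 66.2% and B2 126% of that mean, with N6 at 117% and B1 at 92.2%. Of these 100 DMRs, 95 were among the 301 island regions, so CpG content and overlap with an island cannot be told apart in this class. N4 stayed between 96.9% and 97.3% in all 5 classes of CpG content. N5 was the lowest normal sample in 153 of the 301 regions (50.8%), compared to 18.2% of the other hypermethylated DMRs, and B2 the highest in 128 (42.5%), compared to 19.2%. The part of this spread in the results below was not tested. The counts of regions over 2 times the normal mean and of regions with full separation are given also without N5 and B2.

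**Figure D2:**
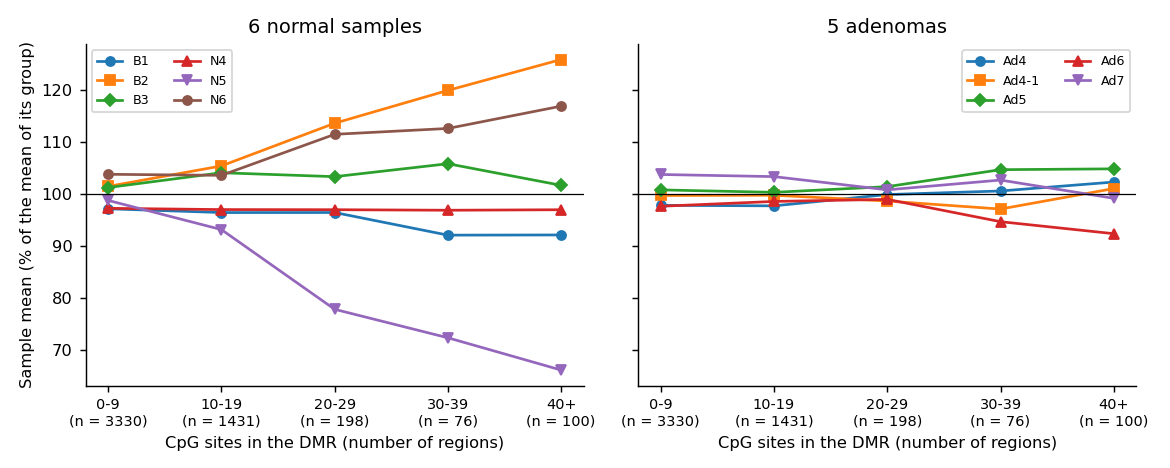
Mean signal of each sample as a percentage of the mean of its group (vertical axis) over hypermethylated DMRs with 0 to 9, 10 to 19, 20 to 29, 30 to 39 and 40 or more CpG sites (horizontal axis, with the number of regions), for the 6 normal samples and the 5 adenomas. N5 falls from 98.8% to 66.2% and B2 rises from 102% to 126%.

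The log2 ratio of the adenoma mean over the normal mean, computed after adding 0.05 rpm, had a median of 0.67 over the 301 regions (quartiles 0.54 and 0.88) and of 0.55 over the other hypermethylated DMRs. It ranged from 0.36 to 3.24. The adenoma mean was over 2 times the normal mean in 78 regions (25.9%), compared to 7.89% of all hypermethylated DMRs. Without N5 this count was 67, against 8.04% of all hypermethylated DMRs, and without N5 and B2 together it was 76, against 10.0%. The ratio of weak regions depends on the constant added: with 0.5 rpm in place of 0.05 rpm the log2 ratios of 10 named regions, described below, lay between 0.54 and 1.97. Measured against a single adenoma at a time, the median log2 ratio was 0.67 for Ad4, 0.64 for Ad4-1, 0.71 for Ad5, 0.59 for Ad6 and 0.66 for Ad7. Within library series 4 the median was 0.64, compared to 0.54 in the other hypermethylated DMRs. Adenoma was higher there in 301 of 301 regions, a count largely set beforehand, since these samples were among those used to list the regions. Within single animals the median log2 ratio was 0.71 in animal 4, 1.11 in animal 5 and 0.42 in animal 6, where the normal partners were N4, N5 and N6. These samples too were used to list the regions.

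Signals in normal intestine were not uniformly low. The median normal mean was 0.362 rpm, compared to 0.242 rpm in the other hypermethylated DMRs, with a range from 0.025 rpm to 2.92 rpm. Fewer than 0.25 rpm were measured in 104 regions (34.6%), compared to 52.7% of the other hypermethylated DMRs. A normal mean of 1 rpm or more was found in 52 regions (17.3%), compared to 0.765% of the other hypermethylated DMRs. The 12 regions under 0.1 rpm in normal intestine had a median log2 ratio of 1.60, and the 52 regions at 1 rpm or more one of 0.52. None of these 52 had an adenoma mean over 2 times the normal mean, although their median difference, 0.642 rpm, was larger than the 0.252 rpm of the 12 weakest. The requirement of 0.25 rpm in at least 1 group allowed a region that is weak in normal intestine to be listed only with a large ratio, which bears on this comparison. More CpG sites went with larger ratios, from a median log2 ratio of 0.58 in the 64 regions with fewer than 20 sites to 0.78 in the 95 regions with 40 or more (Spearman's rho across the 301 regions 0.35, a description of regions that share the same libraries).

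**Figure D3:**
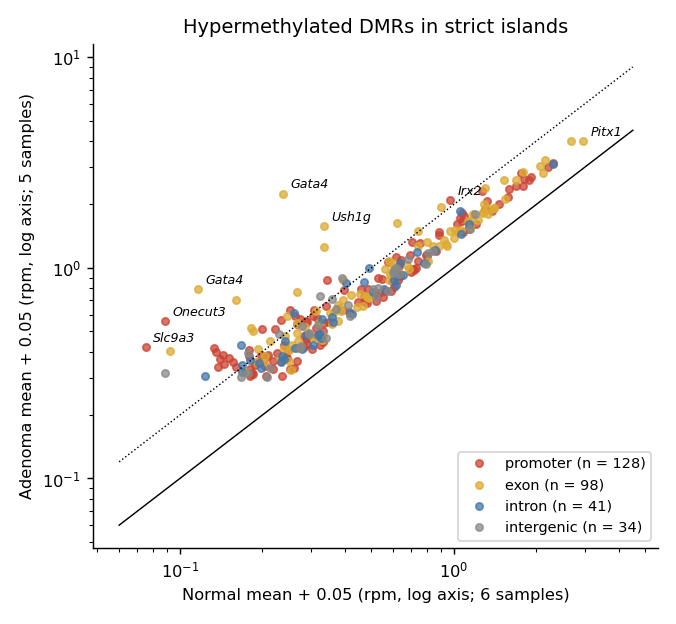
Mean signal in adenoma (vertical, 5 samples) against normal intestine (horizontal, 6 samples) of the 301 regions, both in rpm plus 0.05 on log axes, coloured by place in the gene, with a solid line for equal signals and a dotted line for a ratio of 2. Regions at *Gata4*, *Onecut3*, *Slc9a3* and *Ush1g* lie farthest above the dotted line, and *Pitx1*, at 2.92 rpm in normal intestine, lies below it.

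All 5 adenomas were above all 6 normal samples in 151 of the 301 regions (50.2%). The same held for 44.5% of all hypermethylated DMRs. In another 133 regions (44.2%) 4 adenomas and in 17 regions (5.65%) 3 adenomas were above every normal sample, a pattern that the rank test behind the list favours. The shares in the other hypermethylated DMRs were 47.0% and 7.88%. Without N5 and B2 the number with full separation was 208 (69.1%), compared to 60.9% of all hypermethylated DMRs. With the list fixed, leaving out samples can only keep or raise this number. Ad5 exceeded every normal sample in 286 regions (95.0%), Ad4 in 280 (93.0%), Ad7 in 266 (88.4%), Ad4-1 in 260 (86.4%) and Ad6 in 246 (81.7%). In the other hypermethylated DMRs these shares were 87.9% for Ad5, 85.0% for Ad4, 89.6% for Ad7, 87.3% for Ad4-1 and 84.4% for Ad6. Ad5 and Ad4 were thus above that background, and Ad7, Ad4-1 and Ad6 slightly below it. Ad6 was the lone adenoma within the range of normal intestine in 46 regions, compared to 12 regions for Ad5. Ad6 was also the lowest adenoma most often, in 95 regions. These counts of lone and lowest adenomas were not made over the other hypermethylated DMRs, so they say nothing particular to the islands. The median coefficient of variation among the 5 adenomas was 15.8%, and 15.9% in the other hypermethylated DMRs.

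The 301 regions were concentrated at genes. A promoter, taken as 1000 bp upstream to 500 bp downstream of any transcript start, was overlapped by 128 regions (42.5%), compared to 7.61% of the other hypermethylated DMRs. A further 98 (32.6%) overlapped an exon outside promoters, 41 (13.6%) lay in introns and 34 (11.3%) between genes, compared to 14.9%, 38.4% and 39.1% of the other hypermethylated DMRs. The 90 hypomethylated DMRs that overlapped strict islands had a like distribution, with 40.0% at promoters. Where only the 5′ end of each gene was counted, 90 of the 301 regions (29.9%) were at promoters, so many of the promoter regions lay near the start of an alternative transcript only.

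**Figure D4:**
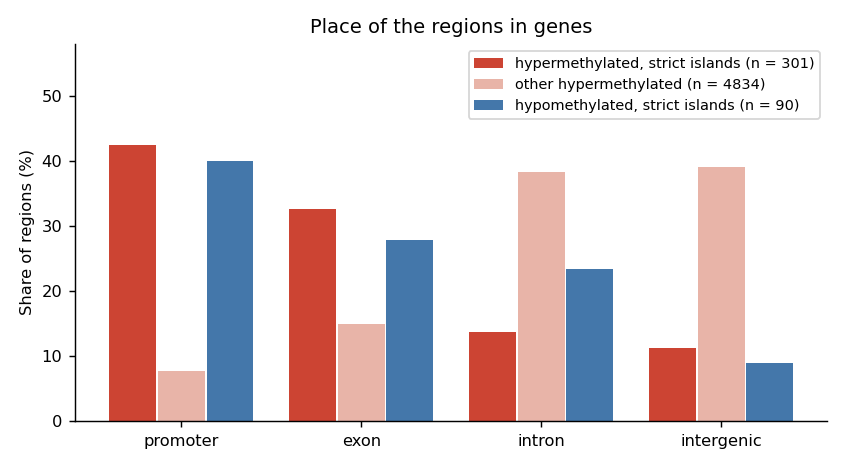
Share of regions in percent (bars from 0) that overlap a promoter, an exon outside promoters, an intron or intergenic sequence, for the 301 hypermethylated DMRs in strict islands, the 4834 other hypermethylated DMRs and the 90 hypomethylated DMRs in strict islands. Promoters make up 42.5%, 7.61% and 40.0% of the groups.

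Islands within genes took a large share. The genome held 21089 strict islands, of which 293 (1.39%) were touched by a hypermethylated DMR, 89 (0.422%) by a hypomethylated DMR and 1 by both. Of islands with a transcript start, 1.07% were touched by a hypermethylated DMR, of islands inside a gene without a start 3.13%, and of islands between genes 0.794%. The DMR crossed an island edge in 204 regions, lay fully inside an island in 81 and spanned a whole island in 16. Regions in islands with a start had a median normal mean of 0.283 rpm and a median log2 ratio of 0.69, and regions in islands inside genes 0.449 rpm and 0.66. In the transcript with the longest coding sequence of each gene, 52 regions overlapped the first of several exons, 56 an internal exon and 45 the last exon. Last-exon regions had the highest signals, with a median of 0.627 rpm in normal intestine and 1.03 rpm in adenoma, compared to 0.288 rpm and 0.606 rpm in first exons.

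The largest gains were seen at *Gata4*, which encodes a zinc finger transcription factor of endoderm and heart that also maintains the identity of proximal small intestine. The region chr14:63859501-63860750, over exon 2 of 7 with the start of the coding sequence, had 2.80 rpm in Ad4, 2.40 in Ad4-1, 2.79 in Ad5, 0.21 in Ad6 and 2.79 in Ad7. In normal intestine it had 0.09 rpm in B1, 0.60 in B2, 0.03 in B3, 0.15 in N4, 0.14 in N5 and 0.12 in N6. Ad6 thus lay within the range of normal intestine while the other adenomas were at least at 2.40 rpm, and the log2 ratio was 3.24, or 3.85 without B2. The adjoining region chr14:63859001-63859500, within the same exon, showed the same order of adenomas at its low end, with 0.10 rpm in Ad6 and 0.72 to 1.20 rpm in the others, against 0.02 to 0.14 rpm in normal intestine (log2 ratio 2.76, or 1.13 after adding 0.5 rpm). Along the 4 overlapping windows of the larger region the log2 ratio was 2.95, 2.84, 3.33 and 3.89 from 5′ to 3′. The most 3′ window had 2.57 rpm in the adenomas against 0.127 rpm in normal intestine, and the stretch of *Gata4* printed above lies in it.

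Large gains without overlap of the groups were found at *Onecut3*, *Slc9a3*, *Ush1g* and *Plcd3*. *Slc9a3* encodes the sodium/hydrogen exchanger NHE3 of the brush border of absorptive enterocytes. Its region chr13:74258501-74259500 covered the transcript start and first exon, and had 0.28 rpm in Ad4, 0.44 in Ad4-1, 0.52 in Ad5, 0.18 in Ad6 and 0.43 in Ad7. Normal intestine had 0.02, 0.04 and 0.03 rpm in B1, B2 and B3, and 0.02, 0.03 and 0.01 rpm in N4, N5 and N6. This is the lowest normal mean of the 301 regions, and every adenoma was higher than every normal sample (log2 ratio 2.49, or 0.73 after adding 0.5 rpm). The input libraries had 0.17 to 0.28 rpm at this region, above normal intestine after pull-down. *Onecut3*, a gene for a cut homeodomain factor, had its region in the intron, chr10:79965251-79966250, where the start of the clone-named gene AC152058.1 is annotated, with 0.37 to 0.72 rpm in the adenomas against 0.01 to 0.07 rpm in normal intestine (log2 ratio 2.66, or 0.90 after adding 0.5 rpm). Here too the input libraries, with 0.15 to 0.28 rpm, were above normal intestine after pull-down.

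The region at *Ush1g*, which encodes a scaffold protein of the Usher complex, was among the 5 longest (chr11:115179251-115180750, 1500 bp, exon 2 of 3), in a place where *Otop2* is also annotated. Its signal was 1.32 rpm in Ad4, 1.46 in Ad4-1, 1.68 in Ad5, 1.99 in Ad6 and 1.18 in Ad7, and 0.25 to 0.34 rpm in normal intestine, with Ad6 here the highest adenoma (log2 ratio 2.23). At this region the input libraries had 0.07 to 0.25 rpm. From its 5′ to its 3′ window the normal mean fell from 0.427 to 0.065 rpm, and the adenoma mean had its maximum of 2.02 rpm in the third of 5 windows. *Plcd3*, which encodes a phospholipase C, had 0.45 to 0.89 rpm in the adenomas against 0.07 to 0.19 rpm in normal intestine over exons 2 and 3 of 15 (chr11:102941251-102942250, log2 ratio 2.13). There the input of B3 had 0.59 rpm, within the range of the adenomas, that of N4 0.10 and that of Ad7 0.03 rpm. The last exon of *Zfp503*, a zinc finger gene, had 0.79 to 1.64 rpm in the adenomas against 0.05 to 0.43 rpm in normal intestine (chr14:22803751-22804750, log2 ratio 1.89). Both *Mn1* regions lay in its first exon. The one with the stretch printed above had 0.54 to 0.94 rpm in the adenomas against 0.13 to 0.38 rpm in normal intestine (chr5:111847251-111848000, log2 ratio 1.53). The more 3′ one was more even among adenomas, with a mean of 1.59 rpm and a coefficient of variation of 10.0%, and had 0.41 to 0.74 rpm in normal intestine (chr5:111848751-111849750, log2 ratio 1.40). *Sstr4*, which encodes a somatostatin receptor, had 0.60 to 1.01 rpm in the adenomas against 0.17 to 0.49 rpm in normal intestine over its start (chr2:148221001-148222000, log2 ratio 1.36). The tenth of the regions with large ratios and at least 0.5 rpm in adenoma was at the start of CK137956, with 0.43 to 0.74 rpm in the adenomas against 0.03 to 0.34 rpm in normal intestine (log2 ratio 1.31). Its input values were 0.53 rpm for B3, 0.12 for N4 and 0.15 for Ad7.

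**Figure D5:**
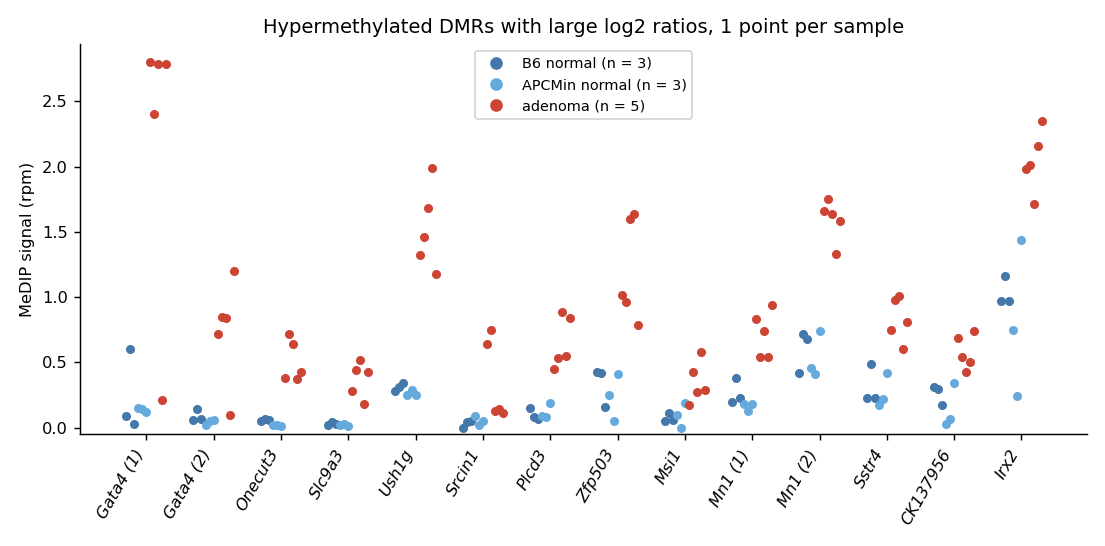
MeDIP signal in rpm (vertical axis from 0) at 14 regions named by the rules of size or gene list, 1 point per sample, ordered by log2 ratio, with numbers in brackets where a gene has 2 regions. In the first *Gata4* region 4 adenomas lie between 2.40 and 2.80 rpm and Ad6 at 0.21 rpm, and in *Srcin1* Ad4 and Ad4-1 stand at 0.64 and 0.75 rpm above the other adenomas.

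The regions of widest spread among adenomas had low signals, where single values carry a large counting error. At *Srcin1*, which encodes an inhibitor of SRC kinase signalling, Ad4 had 0.64 and Ad4-1 0.75 rpm, while Ad5, Ad6 and Ad7 had 0.13, 0.14 and 0.11 rpm and the normal samples 0.00 to 0.09 rpm (chr11:97396251-97396750, exon 8 of 22). All adenomas were above every normal sample, but the last 3 by little. Input at this region was 0.56 rpm for B3, 0.06 for N4 and 0.13 for Ad7. The coefficient of variation among adenomas, 88.7%, was the highest of the 301 regions, and the 2 high adenomas came from 1 animal and from library series 4. At the serotonin receptor gene *Htr5b*, Ad5 had 0.96 rpm, the other adenomas 0.34 to 0.42 rpm and normal intestine 0.13 to 0.34 rpm (chr1:123424251-123424750). At *Klhl35*, which encodes a kelch-like protein, Ad5 had 0.62 rpm and the other adenomas 0.18 to 0.26 rpm, with 0.04 to 0.21 rpm in normal intestine (chr7:106616501-106617000). At *Zcchc3*, Ad5 had 0.62 rpm and the other adenomas 0.18 to 0.33 rpm, with 0.02 to 0.19 rpm in normal intestine (chr2:152240001-152240500).

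Genes for transcription factors made up a marked share of the genes touched. A member region overlapped 283 annotated genes, their promoters included, of which 40 (14.1%) belonged to the lists of homeodomain, forkhead, Sox, T-box, GATA, basic helix-loop-helix (bHLH) and zinc finger factors, compared to 3.44% of the genes touched by the other hypermethylated DMRs. Of the 683 genes of these lists with a strict island in the gene or promoter, 5.86% held a region, compared to 1.77% of all 15938 genes with such an island. These are descriptions of lists that were chosen with earlier results of these data known. The 45 regions at these genes had a median log2 ratio of 0.69, against 0.67 over the 301 regions, so they were many but their gain was of the usual size.

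Homeodomain genes, which pattern the body axis and organs, held 19 regions in 17 annotated genes (*Hoxa3* counted with 2 entries), 10 of them at promoters. Their log2 ratios ranged from 0.43 to 2.66, with a median of 0.62, and 12 of the 19 had full separation of adenoma and normal intestine, a state met by 44.5% of all hypermethylated DMRs and 50.2% of the 301 regions. At *Irx2* the region of 1500 bp with 106 CpG sites (chr13:72768251-72769750, over exons 2 and 3 of 5 and the start of an alternative transcript) had 1.98 rpm in Ad4, 2.01 in Ad4-1, 1.71 in Ad5, 2.16 in Ad6 and 2.35 in Ad7. B6 normal intestine had 0.97, 1.16 and 0.97 rpm, and APCMin normal intestine 0.75 rpm in N4, 0.24 in N5 and 1.44 in N6. The groups did not overlap (log2 ratio 1.11), but N5 was far below the other normal samples. *Msx1* had 0.24 to 0.61 rpm in the adenomas against 0.09 to 0.16 rpm in normal intestine over its last exon (chr5:38212251-38213000, log2 ratio 1.51), with 0.24 to 0.45 rpm in the input libraries. *Isl2* had 0.29 to 0.37 rpm in the adenomas against 0.06 to 0.22 rpm in normal intestine (chr9:55390501-55391000, log2 ratio 1.10). The *Hox* clusters held regions at *Hoxa2*, *Hoxa3*, *Hoxd3* and *Hoxd4*, with normal signals that differed widely. That at *Hoxa2*, named after its values were seen, had 0.30 to 0.75 rpm in the adenomas against 0.14 to 0.27 rpm in normal intestine. The larger region at *Hoxd3* (chr2:74584251-74585500) had 2.52 to 3.02 rpm in the adenomas against 1.14 to 2.27 rpm in normal intestine (log2 ratio 0.68), and the region at the shared promoters of *Hoxd3* and *Hoxd4* had 2.56 to 3.54 against 1.69 to 2.80 rpm (log2 ratio 0.46).

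Forkhead, Sox, T-box and GATA genes held 11 regions in 9 genes, with log2 ratios from 0.46 to 3.24. Beside *Gata4* these included *Tbx4*, a T-box gene of the hindlimb, which had 0.35 to 0.62 rpm in the adenomas against 0.13 to 0.44 rpm in normal intestine (chr11:85703751-85704250, log2 ratio 1.02), so the groups overlapped through B2. *Foxa2*, a pioneer factor of endoderm, had 1.06 to 1.41 rpm in the adenomas against 0.35 to 1.01 rpm in normal intestine (chr2:147870001-147871000, log2 ratio 0.91, named here after its values were seen). Of the bHLH factors, *Hand1* held 2 regions and *Nhlh1* 1, none with full separation. Zinc finger factors held 12 regions with log2 ratios from 0.43 to 1.89, among them *Zfp503*, *Zfp536* (1.09) and *Zbtb7c* (1.02). Another was the region over the last exon of *Abi3*, in a place where *Phospho1* and *Zfp652* are also annotated, with 1.27 to 2.30 rpm in the adenomas against 0.53 to 1.16 rpm in normal intestine (log2 ratio 1.12). The *Zbtb7c* region had 0.27 to 0.39 rpm in the adenomas, with inputs of 0.71 rpm for B3, 0.23 for N4 and 0.06 for Ad7.

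Genes of signalling pathways held 6 regions in all. The Wnt pathway, which Apc restrains, had 1 region among its 72 genes with a strict island, at the receptor gene *Fzd2*, with 1.36 to 1.59 rpm in the adenomas against 0.79 to 1.38 rpm in normal intestine (log2 ratio 0.45). The BMP and TGF-beta pathway had 1 of 60, at the ligand gene *Nodal* (log2 ratio 0.59). Hedgehog, FGF and Notch pathways had 2 of 56, at the ligand gene *Fgf16* (log2 ratio 1.36) and at *Fgfr2*, whose gene body is overlapped by a region at the start of *Tacc2* (0.45). Axon guidance genes had 2 of 74, at *Sema6c* (1.16) and *Efnb3* (0.94). The share of genes with an island that held a region was 1.39% for the Wnt list, 1.67% for the BMP and TGF-beta list, 2.70% for axon guidance and 3.57% for the hedgehog, FGF and Notch list, against 1.77% of all genes with an island, and each rests on 1 or 2 genes.

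Cadherins and protocadherins, adhesion molecules of which many lie in clusters with shared exons, held 14 regions in 8 genes, or 16.3% of the genes of this list with an island. The 5 regions assigned to *Pcdhgc5*, with log2 ratios of 0.51 to 0.75, and the 2 assigned to *Pcdha11*, with 0.39 and 0.42, lie in the protocadherin clusters of chromosome 18. A further region that overlaps *Pcdhgc5* was assigned to the last exon of *Gm16882* (0.88). Outside the clusters *Pcdh17* had a region of 1500 bp in its first exon, with 0.50 to 0.65 rpm in the adenomas against 0.17 to 0.43 rpm in normal intestine (chr14:84846501-84848000, log2 ratio 1.00). *Cdh7* had 0.55 to 0.97 rpm in the adenomas against 0.09 to 0.55 rpm in normal intestine at its start (log2 ratio 0.98), with B2 as high as the lowest adenoma. Ion channels and neurotransmitter receptors held 11 regions in 11 genes (5.05% of those with an island), led by the potassium channel gene *Kcnk9*, with 0.22 to 0.54 rpm in the adenomas against 0.01 to 0.24 rpm in normal intestine (log2 ratio 1.40). Solute carriers held 3 regions, at *Slc9a3*, the glucose transporter gene *Slc2a12* (log2 ratio 1.28) and the sodium/calcium exchanger gene *Slc8a2* (0.67).

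Among genes of intestinal cells, the list of differentiated epithelium had 1 gene with a region, *Slc9a3*, of 13 with an island, and the list of stem and crypt cells 1 of 14, *Msi1*. *Msi1* encodes the RNA-binding protein Musashi-1. Its region lay near the start of an alternative transcript (chr5:115886001-115887000), with 0.17 rpm in Ad4, 0.43 in Ad4-1, 0.27 in Ad5, 0.58 in Ad6 and 0.29 in Ad7, and 0.00 to 0.19 rpm in normal intestine, so that Ad4 overlapped N6 (log2 ratio 1.56). No region was found at the listed marker genes of smooth muscle, fibroblasts and endothelium, of immune cells or of enteric neurons and glia, of which 7, 4 and 9 had a strict island. Other genes of these cells were not counted. The 47 listed genes of the DNA methylation and Polycomb machinery, which all had a strict island, held none. At the 1.77% of all genes with an island, lists of these sizes would hold fewer than 1 such gene, so these counts say nothing particular to the lists. *Kdm2b*, which encodes a protein that binds unmethylated CpG islands and was not on that list, held 2 regions. The one at a transcript start had 0.26 to 0.63 rpm in the adenomas against 0.04 to 0.27 rpm in normal intestine (chr5:123401501-123402250, log2 ratio 1.35).

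Of the 48 listed tumour suppressor genes with an island that are known to be methylated in colon cancer, 1 held regions, *Gata4* (2.08%, near the 1.77% of all genes with an island). Imprinted genes, which carry methylation on 1 parental allele, held 4 regions in 4 of 37 genes with an island (10.8%). *Plagl1*, which encodes a zinc finger protein and whose region covered a transcript start (chr10:12810251-12810750), had 2.74 rpm in Ad4, 2.43 in Ad4-1, 2.97 in Ad5, 2.65 in Ad6 and 2.44 in Ad7. Normal intestine had 1.57, 2.18 and 1.99 rpm in the B6 samples and 1.83, 1.38 and 2.21 rpm in the APCMin samples. The groups did not overlap, and the log2 ratio was 0.50. The regions at *Cdkn1c*, *Ndn* and *Inpp5f* had log2 ratios of 0.65, 0.64 and 0.43. In normal intestine these 4 regions had 0.562 to 1.86 rpm, above the median of 0.362 rpm of the 301 regions.

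The regions with the highest signals in normal intestine were described separately. They were at *Pitx1*, *Zfp316*, *Prdm16*, *Hoxd3* with *Hoxd4*, and *Gp1bb*. *Pitx1*, a homeodomain gene of the hindlimb, had 4.15 rpm in Ad4, 3.94 in Ad4-1, 4.18 in Ad5, 3.86 in Ad6 and 3.6 in Ad7 over its last exon (chr13:55927501-55928000). B1, B2 and B3 had 2.35, 3.70 and 3.32 rpm, and N4, N5 and N6 had 2.95, 2.12 and 3.08 rpm. B2 thus overlapped Ad7, and the log2 ratio was 0.43. *Zfp316* had 3.67 to 4.12 rpm in the adenomas against 1.59 to 3.55 rpm in normal intestine (chr5:144014751-144015500, log2 ratio 0.58). At both genes N5 was the lowest sample.

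Gene sets of Polycomb binding in embryonic stem cells, given as lists of genes with the study, were compared by counts. Genes of at least 1 of the 4 Polycomb sets (PRC1/2 in mouse cells, and H3K27me3, PRC2 and EED in human cells) were touched by 89 of the 301 regions (29.6%), compared to 7.05% of the other hypermethylated DMRs and 17.8% of the hypomethylated DMRs in strict islands. Of the 1337 genes of these sets with a strict island, 5.53% held a region, compared to 1.77% of all 15938 genes with such an island. The 89 regions had a median log2 ratio of 0.73 and 0.317 rpm in normal intestine, and the other 212 regions 0.65 and 0.369 rpm. The adenoma mean was over 2 times the normal mean in 30 of the 89 (33.7%) and in 48 of the 212 (22.6%). MLL targets were touched by 6 regions (1.99%), compared to 2.94% of the other hypermethylated DMRs. TET1 targets were touched by 41 (13.6%), compared to 9.16%, and by 20.0% of the hypomethylated DMRs in strict islands. Among target genes with a strict island, 0.936% of the MLL set and 2.09% of the TET1 set held a region. The 4 Polycomb sets share genes, as do these sets and the lists of transcription factors, so the counts are not independent of each other.

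Several genes held more than 1 region. With each region assigned to 1 gene, 23 genes were counted with 2 or more, with 5 at *Pcdhgc5* and 3 each at *Hoxd3* and *Cbln4*. That count leaves out *Msx1* and *Cdkn1c*, each of which was assigned a further region (chr5:38209001-38210000 and chr7:150630501-150631000). The windows of the further *Msx1* region had log2 ratios of 1.69 to 1.90. The 3 regions of *Cbln4*, which encodes a secreted synaptic organiser, covered its promoter and first exon with log2 ratios of 0.84 to 1.10. Another hypermethylated DMR lay within 5000 bp of 63 of the 301 regions (20.9%), compared to 5.69% of the other hypermethylated DMRs, and a hypomethylated DMR within 5000 bp of 13 (4.32%), compared to 5.92%. Of the 5 longest regions, at *Ush1g*, *Irx2*, *Pcdh17*, *Icam5* and *Stx11*, that at *Stx11*, a syntaxin gene, had the highest adenoma signal in a single window, 2.70 rpm against 1.62 rpm in normal intestine in the second of its 5 windows. Chromosome 11 held 36 regions, or 2.36 per 100 islands, chromosome 18 held 18, or 2.82, and chromosome X 3, or 0.347. They are named for their high or low rates. Over the genome 1.39% of strict islands were touched by a hypermethylated DMR. Of the 18 regions of chromosome 18, 5 were those assigned to *Pcdhgc5*. The regions assigned to *Pcdha11*, *Pcdhb1*, *Gm16882* and *Pcdh1* also lay on chromosome 18, so protocadherin loci made up a large part of its count.

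The comparison of APCMin normal with B6 normal intestine asks whether the regions already differ in unaffected tissue of mice with the Min allele. The difference between these groups was not used to list the regions, but the values of both groups were, pooled against adenoma. The comparison is therefore not independent of the list. Across all 13980 DMRs of both directions, limma called 0 (0%) at an adjusted p under 0.05 with 3 samples against 3, and 0 of the 301 regions. At an unadjusted p under 0.05 it gave 34 of the 301 regions (11.3%), against 4.63% of all DMRs and 4.6% of the hypermethylated DMRs. Of these 34, 33 were lower in APCMin normal intestine, a direction and threshold met by 3.26% of all DMRs. The median log2 difference of APCMin minus B6 normal was -0.13 over the 301 regions, with a median standard error per region of 0.23, and -0.02 over all DMRs. Leaving out N5 turned the median to 0.00, with 19 regions at an unadjusted p under 0.05 (6.31%), leaving out B2 moved it to -0.06, with 14, and leaving out N6 moved it to -0.25, with 76. Within library series 4, where N4 was set against B1 and B2, the median was -0.13. The smallest p was at *Hoxa3*, where the region in its last exon (chr6:52120501-52121000) had 0.78, 0.90 and 0.71 rpm in the B6 samples, 0.48, 0.27 and 0.62 rpm in the APCMin samples and 0.82 to 1.09 rpm in adenoma (log2 difference -0.80 ± 0.22 (SE), adjusted p = 0.953 by limma).

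Input DNA, sequenced without pull-down, was available for 3 samples. Its values are given for only some of the regions named above. Over the 301 regions the input of B3 had a mean of 0.230 rpm, that of N4 0.125 rpm and that of Ad7 0.113 rpm. Over the other hypermethylated DMRs these means were 0.177, 0.143 and 0.139 rpm. Between the 2 libraries with like input levels, the input of Ad7 was 0.908 times that of N4, while the MeDIP signal of Ad7 was 1.70 times that of N4. The input of B3 stood apart at the islands, while the MeDIP signal of B3, 0.563 rpm, was near the mean of normal intestine. Whether this input difference bears on the results was not tested. The mean of normal intestine after pull-down was above the mean of both normal inputs in 238 of the 301 regions (79.1%), compared to 79.6% of the other hypermethylated DMRs. Ad7 was above its own input in 297 (98.7%), compared to 94.9%.

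Regions just inside and just outside the limit of the island rule had like values, given without a test. The 63 regions whose best stretch of 500 bp had an observed to expected ratio of 0.65 to 0.70 had a median log2 ratio of 0.59, a median normal mean of 0.467 rpm and 41.3% at promoters. The 52 hypermethylated DMRs outside strict islands with a ratio of 0.60 to 0.65 had a median of 0.57, 0.441 rpm and 44.2%. The 423 hypermethylated DMRs that overlapped only looser islands (300 bp, over 50% GC and a ratio over 0.6) had a median log2 ratio of 0.53. The 90 hypomethylated DMRs in strict islands had a median log2 ratio of -0.70, with 0.425 rpm in normal intestine and 0.244 rpm in adenoma, and there N5 also was the lowest normal sample, with 0.532 rpm against a mean of 0.590 rpm.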

How the data were processed

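MeDIP libraries of 11 ileum samples and 3 input libraries were analysed. RNA values were not analysed here. Reads had been aligned by the authors to mm9 with Bowtie 0.12.5, keeping unique hits and counting reads with the same start once. The deposited values are rpm per window of 500 bp or per merged DMR, made by the authors from reads extended to 300 nt and written with 2 decimals, so low values are coarse. The tables also hold the authors' ratios and rank test p-values, which were not used.

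Strict islands were called on the mm9 sequence (NCBIM37), and genes were taken from the GENCODE annotation of the same build (37273 genes). Ratios used group means plus 0.05 rpm. APCMin and B6 normal intestine were compared with limma 3.58.1 (R 4.3.3, moderated with trend) on log2(rpm + 0.05) over all 13980 DMRs, with Benjamini-Hochberg adjustment, after the step was tested on simulated data. Within a group the samples carry separate animal numbers, except Ad4 and Ad4-1, which share an animal. Tables were made with Python 3.11.15.

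Regions were named by fixed rules: the 10 largest ratios with at least 0.5 rpm in adenoma, the 5 longest, the 5 highest in normal intestine, the 5 of widest spread among adenomas, up to 4 per gene list (all for tumour suppressor and imprinted genes) and genes with several regions. The members and lists were chosen with earlier results of these data known. Same-numbered normal and adenoma samples share an animal. Their deviations from the group means correlated at -0.04 to 0.02, compared to -0.03 to 0.07 between animals. Alternatives covered the pseudocount, filters, island and promoter definitions, omitted samples and pairing. A result at 1 gene is not reported here.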

Additional observations from a re-analysis of the deposited data

Results flagged for a closer look

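In 3 of the 23 named regions checked, 1 adenoma stood apart from the other 4 by a gap of more than 0.71 of the range of the group. At *Gata4* (chr14:63859501-63860750) this was Ad6, with 0.21 rpm, where the others had 2.40 to 2.80 rpm. At *Htr5b* it was Ad5, with 0.96 rpm, and at *Klhl35* also Ad5, with 0.62 rpm. Over all members, 23 (7.64%) had such an adenoma, compared to 8.61% of the other hypermethylated DMRs, and chance alone gives some such gaps in groups of this size.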

How the results depend on the processing

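The number of regions was 717 with looser islands (300 bp, over 50% GC and an observed to expected ratio over 0.6) and 78 with a ratio of group means over 2. The median log2 ratio of 0.67 moved to 0.37 with a pseudocount of 0.5 rpm and to 0.73 with 0.01 rpm, to 0.61 among regions with at least 0.5 rpm in adenoma, and to 0.62 against B6 normal alone. Leaving out single samples gave 0.61 (without N5) to 0.71 (without B2). Paired within animals 4, 5 and 6 (the replicate block), it was 0.75. Full separation held in 47 regions with a ratio of group means over 2. It held in 155 to 203 regions when single samples were left out, against 151 with all samples. With the list fixed, leaving out samples can only keep or raise this count. The median coefficient of variation among adenomas was 14.3% to 15.9% when single adenomas were left out. The regions over 2 times the normal mean were 83 without Ad6. The comparison of normal groups by limma gave 0 called members under all of its alternatives. A pseudocount of 0.5 rpm moved 9 of the 10 named regions checked by more than the spread between samples, among them *Slc9a3* (2.49 to 0.73), *Onecut3* (2.66 to 0.90) and the second *Gata4* region (2.76 to 1.13), since it exceeds their normal signal. With 0.01 rpm *Slc9a3* had 3.44 and *Onecut3* 3.42. In all, 14 of 150 alternatives at named regions moved the log2 ratio by more than that spread, and 0 reversed it. The alternative that leaves repeats out of islands was not run because the genome is not soft-masked. The counts over 2 times the normal mean without N5 or without Ad6, and the omission of N5 and B2 together, were chosen after seeing the data. Depth limits regions under 0.25 rpm, where the counting error of a sample is at least 30.2%. Values written with ± give the spread between samples as SD, or the SE by limma that is based on it. Files hold rounded values, so differences of 0.01 rpm are not resolved.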
